A study of Homo sapiens with 8 samples.

Results

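The 9 genes of the classical route of MHC class I antigen presentation described here were followed through knockdown of ESRRA, the gene of the orphan nuclear receptor ERRα. They were taken by symbol from the rows of the gene count table, 9 of 23368 symbols: the heavy chains HLA-B, HLA-C, HLA-E and HLA-F, the light chain B2M, the peptide transporter subunits TAP1 and TAP2, the loading factor TAPBP and the transactivator NLRC5. All 9 passed the filter on low counts and were among the 13395 genes tested. The cells were MDA-MB-231, a long-established line from a human breast carcinoma that lacks the oestrogen and progesterone receptors, grown in DMEM with fetal calf serum and transfected with INTERFERin. The siRNAs siE1, siE2 and siE3 each target ESRRA, and siC is the control siRNA that all 3 are set against, with 2 libraries per siRNA. The time of harvest and the siRNA sequences were not given in the sources used here, and no label says that the libraries of a pair came from separate cultures, so p-values measure the spread between libraries, which may be technical.

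Class I molecules carry peptides made inside the cell to its surface, where cytotoxic T cells inspect them. Proteasomes cut cytosolic proteins, the TAP1 and TAP2 heterodimer pumps the peptides into the endoplasmic reticulum, aminopeptidases trim them, and tapasin (the product of TAPBP) bridges the transporter to a waiting heavy chain paired with β2-microglobulin. Transcription of the route is raised by interferons through IRF and STAT factors, and NLRC5 acts with the RFX, CREB and NF-Y factors bound at the class I promoters. Tumour cells often carry lowered class I expression, which shields them from T cells.

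Levels are given as CPM, a gene's counts scaled to a common library total with TMM factors. Libraries held between 21835995 and 25880548 counts. ESRRA itself stood at 10.3 and 10.5 CPM in the siE1 pair, 8.86 and 7.25 in the siE2 pair and 8.55 and 8.31 in the siE3 pair, against 62.9 and 64.8 with siC. The targeted gene was thus far below siC in all 6 knockdown libraries, at log2 fold changes of -2.62, -2.99 and -2.92. The line's markers VIM, CD44, EGFR and AXL were abundant, PGR was at 0 and ESR1 did not exceed 1 count, whereas ERBB2 (52.0 to 67.1 CPM) and EPCAM (9.11 to 12.7 CPM) were present. Among 7 leukocyte markers CD3E and HBB were at 0 in every library, and the summed level of the 7 was 0.849 to 1.13 CPM with siE1, 0.605 to 0.82 with siE2, 0.411 to 0.692 with siE3 and 0.386 to 0.411 with siC. The higher sum with siE1 came from CD14, at 18 and 18 counts with siE1 against 4 and 4 with siC, and its part in the class I values was not tested. The 3 endothelial markers summed to at most 1.86 CPM and the 3 fibroblast markers to at most 0.216 CPM. In bulk RNA, a change in the share of cells that express a gene and a change in RNA per cell cannot be told apart.

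The promoters of the genes called against siC with any siRNA below are shown first, since they carry the letters by which the route is usually grouped. Sequences are from RefSeq (GRCh38.p14, which is not the hg19 build named in the submitters' notes), 250 bases before to 50 after the annotated start and read along the gene's strand. The table held windows for 7 of the 9 genes. Capitals mark matches, on either strand, to the interferon-stimulated response element (GAAA, any 2 bases, GAAA), the interferon-γ-activated site TTCNNNGAA, the κB element (GGGGA, any 2 bases, CCC), the X2 or CRE core TGACG, the Y box CCAAT and the ERR response element TNAAGGTCA. The windows are B2M at chr15:44711267-44711566 (plus strand), TAPBP at chr6:33314029-33314328 (minus), TAP1 at chr6:32853655-32853954 (minus, the first of its 2 starts), TAP2 at chr6:32838690-32838989 (minus), HLA-B at chr6:31357130-31357429 (minus) and HLA-C at chr6:31272043-31272342 (minus).
B2M: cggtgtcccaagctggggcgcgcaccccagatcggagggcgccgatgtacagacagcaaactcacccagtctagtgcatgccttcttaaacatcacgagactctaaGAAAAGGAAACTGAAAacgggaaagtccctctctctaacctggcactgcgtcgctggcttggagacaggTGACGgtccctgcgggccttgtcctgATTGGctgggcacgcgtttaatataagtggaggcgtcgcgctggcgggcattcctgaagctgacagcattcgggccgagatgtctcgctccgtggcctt
TAPBP: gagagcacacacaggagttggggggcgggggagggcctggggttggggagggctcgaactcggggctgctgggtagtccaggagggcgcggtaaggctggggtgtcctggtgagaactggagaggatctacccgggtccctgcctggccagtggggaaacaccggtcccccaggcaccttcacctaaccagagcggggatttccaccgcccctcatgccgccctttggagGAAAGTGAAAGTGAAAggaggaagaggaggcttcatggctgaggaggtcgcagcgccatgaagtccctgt
TAP1: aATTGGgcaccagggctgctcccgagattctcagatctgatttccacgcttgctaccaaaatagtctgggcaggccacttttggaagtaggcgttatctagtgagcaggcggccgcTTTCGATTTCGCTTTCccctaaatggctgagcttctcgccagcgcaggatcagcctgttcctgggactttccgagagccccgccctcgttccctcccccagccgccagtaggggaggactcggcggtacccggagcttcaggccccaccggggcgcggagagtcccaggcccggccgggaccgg
TAP2: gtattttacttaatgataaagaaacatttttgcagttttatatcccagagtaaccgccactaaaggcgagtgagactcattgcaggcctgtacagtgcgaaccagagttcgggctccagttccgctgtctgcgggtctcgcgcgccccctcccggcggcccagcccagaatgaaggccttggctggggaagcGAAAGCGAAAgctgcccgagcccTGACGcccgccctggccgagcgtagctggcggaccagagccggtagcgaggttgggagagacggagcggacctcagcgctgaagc
HLA-B: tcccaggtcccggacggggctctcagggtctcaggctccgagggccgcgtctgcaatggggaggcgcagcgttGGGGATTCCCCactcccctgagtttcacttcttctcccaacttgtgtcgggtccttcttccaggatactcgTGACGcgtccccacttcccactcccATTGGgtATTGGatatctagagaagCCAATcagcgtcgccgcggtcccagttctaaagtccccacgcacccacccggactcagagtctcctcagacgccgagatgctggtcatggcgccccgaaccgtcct
HLA-C: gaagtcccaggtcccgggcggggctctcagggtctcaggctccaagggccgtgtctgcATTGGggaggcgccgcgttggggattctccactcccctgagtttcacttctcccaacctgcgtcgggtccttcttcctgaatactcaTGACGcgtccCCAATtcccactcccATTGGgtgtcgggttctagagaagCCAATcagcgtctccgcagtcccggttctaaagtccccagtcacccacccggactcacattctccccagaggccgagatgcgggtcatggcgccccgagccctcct

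The interferon element was matched in 5 of the 7 genes with a window (HLA-F, B2M, TAP1, TAP2 and TAPBP) and in 3.57% of all 35116 promoters. In B2M, TAP1 and TAPBP it stood as a pair of overlapping matches, at -144 to -129, -134 to -119 and -20 to -5 from the start. The Y box was matched in 5 genes (HLA-B, HLA-C, HLA-F, B2M and TAP1) against 34.6% of all promoters, and TGACG in 4 (HLA-B, HLA-C, B2M and TAP2) against 24.6%. The κB letters were matched in HLA-B only (2 overlapping matches, 2.85% of all promoters), where the HLA-C window differs. The site TTCNNNGAA was matched at the second start of TAP1 alone (7.66%). No window held the ERR element, which 0.951% of all promoters held. A match describes the letters of these windows and was not tested for use in these cells. Variants that depart from these exact patterns were not searched for, so a window without a match is not shown to lack the element.

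**Figure D1:**
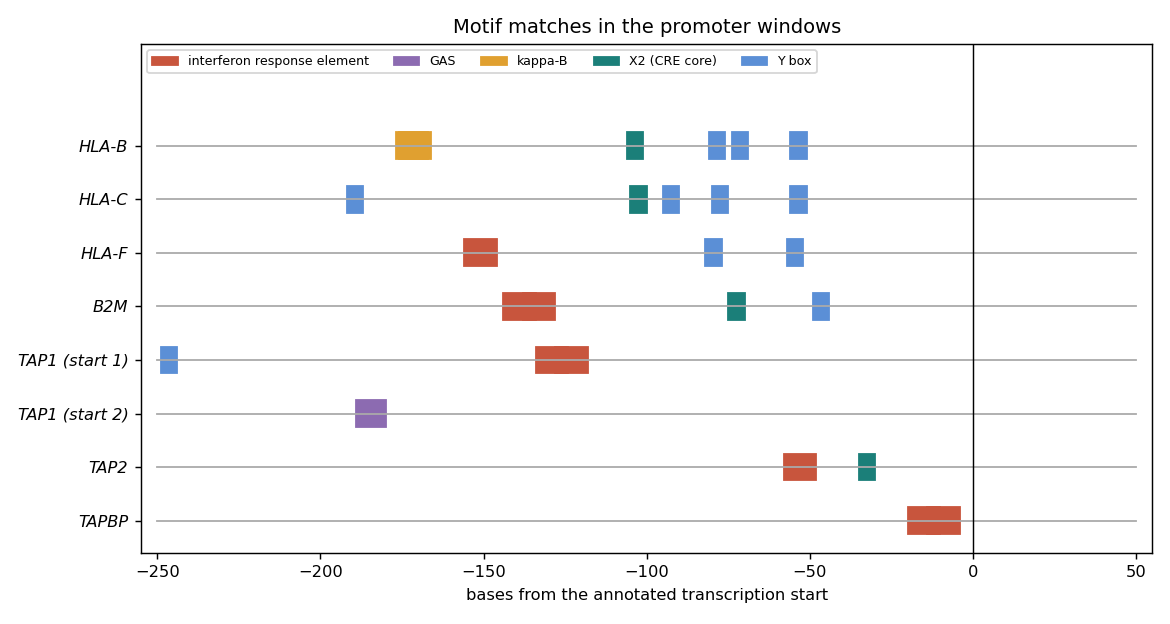
Motif matches in the 8 promoter windows of 7 class I genes, drawn by distance in bases from the annotated start, which is at 0. Boxes are matches on either strand, coloured by motif; the interferon element lies at -144 to -129 in B2M and at -20 to -5 in TAPBP.

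Against siC, the 9 genes did not move as a block. With siE1, 4 of 9 were higher (HLA-C, B2M, TAP1 and TAPBP) and none lower by edgeR's quasi-likelihood test at an adjusted p below 0.05, where 50.3% of all tested genes were called, 24.5% higher and 25.8% lower. With siE2, 3 were higher (B2M, TAP1 and TAPBP) and TAP2 was lower, where 56.4% of all tested genes were called, 27.9% higher and 28.5% lower. With siE3, B2M was higher and HLA-B lower, where 42.1% were called, 21.3% higher and 20.8% lower. For the average of the 3 siRNAs 5 of 9 were called, HLA-C, B2M, TAP1 and TAPBP higher and TAP2 lower, against a background of 51.1%, 23.4% higher and 27.7% lower. Counted in either direction, the genes called were near or below the background with each siRNA and slightly above it for the average. Counted by direction, the genes called higher exceeded the background with siE1 and for the average, and those called lower fell short of it; with 9 genes such counts single out nothing, and the comparisons share the siC libraries.

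By position alone, both siE1 libraries lay above both siC libraries for 5 of the 9 genes and below them for 1, where 36.3% and 38.4% of all tested genes did so. The siE2 pair lay above siC for 6 and below for 1, where 39.5% and 38.8% of all tested genes did. The siE3 pair lay above for 2 and below for 2, where 34.5% and 34.7% did. B2M and HLA-C were the genes with all 6 knockdown libraries above siC, and none of the 9 had all 6 below, where 15.1% and 15.4% of all tested genes did.

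The median log2 fold change of the 9 genes was 0.08 for siE1, 0.18 for siE2 and -0.01 for siE3, and that of all tested genes was -0.01, 0.01 and 0.00. B2M was the only gene of the 9 called by all 3 siRNAs, and HLA-E, HLA-F and NLRC5 were called by none. Of all tested genes, 8.73% were called higher by all 3, 7.42% lower by all 3 and 21.2% by none. No gene of the 9 was called in opposite directions by different siRNAs. In no comparison with siC did a called gene reach a change of 1.5-fold.

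**Figure D2:**
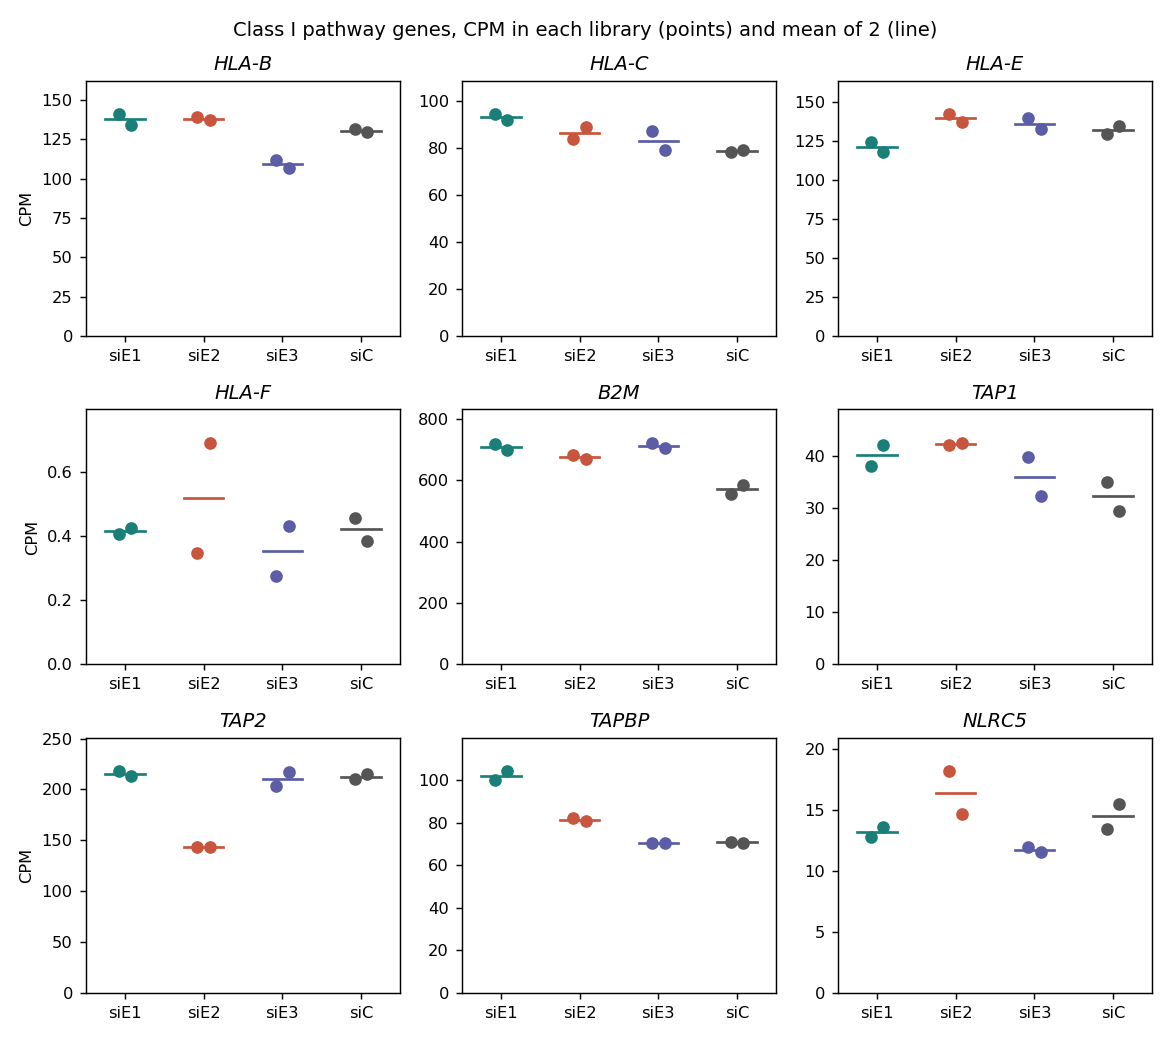
Level of each of the 9 genes in every library (CPM, a panel per gene with its own axis from 0), with siE1, siE2 and siE3 left of siC. Points are libraries and bars are group means; B2M lies above both siC libraries in all 6 knockdown libraries, and TAP2 is low in the siE2 pair.

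B2M, the invariant light chain that every classical class I molecule needs, was higher with each siRNA. It stood at 719 and 699 CPM in the siE1 pair, 682 and 669 in the siE2 pair and 722 and 703 in the siE3 pair, against 557 and 583 with siC. All 6 knockdown libraries lay above both siC libraries. The log2 fold changes were 0.32 (SE 0.0406, adjusted p = 1.19e-05), 0.25 (SE 0.0406, adjusted p = 0.000103) and 0.32 (SE 0.0407, adjusted p = 1.31e-05) by edgeR, or 1.19- to 1.25-fold. The siRNAs did not differ detectably from each other in B2M, with 95% intervals of -0.0164 to 0.156 for siE1 against siE2, -0.0935 to 0.0792 for siE1 against siE3 and -0.163 to 0.00929 for siE2 against siE3 on the log2 scale. These calls against siC held under every alternative computed for single genes; none reached 1.5-fold.

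**Figure D3:**
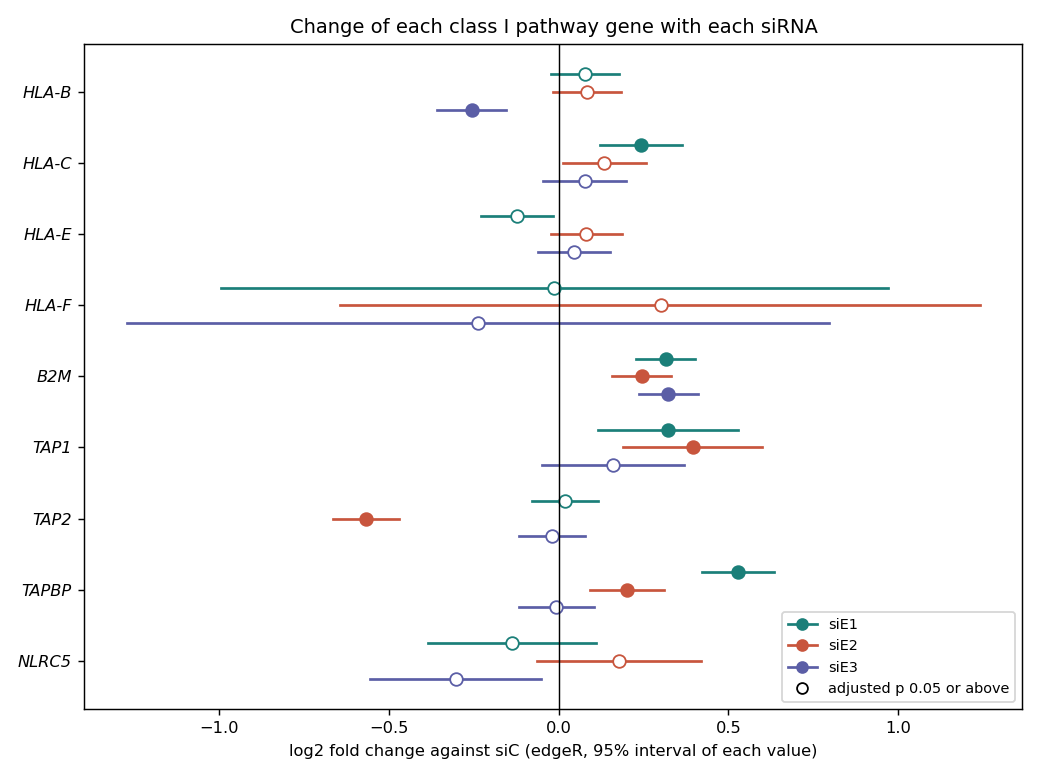
Log2 fold change of each of the 9 genes for siE1, siE2 and siE3 against siC, with 95% intervals; filled points have an adjusted p below 0.05 by edgeR. B2M lies at 0.25 to 0.32 with all 3 siRNAs, whereas TAP2 departs from 0 with siE2 only, at -0.57.

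The heavy chains, which hold the peptide and are polymorphic in HLA-B and HLA-C, moved in different directions. HLA-B stood at 141 and 134 CPM in the siE1 pair, 139 and 137 in the siE2 pair and 112 and 107 in the siE3 pair, against 131 and 129.6 with siC. The siE1 and siE2 pairs lay above siC and the siE3 pair below it, the last with a log2 fold change of -0.26 (SE 0.0476, adjusted p = 0.000491). The siE3 level was also below those of siE1 and siE2, which exceeded it by 0.33 (SE 0.0474, adjusted p = 3.63e-05) and 0.34 (SE 0.0475, adjusted p = 2.95e-05). For siE1 and siE2 against siC the changes of 0.08 and 0.08 missed the threshold (adjusted p = 0.188 and 0.147 by edgeR). The siE2 change passed it when libraries were scaled by total alone (edgeR adjusted p = 0.0331). That scaling also raised the median of all tested genes with siE2, to 0.0488.

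HLA-C, a ligand of killer cell immunoglobulin-like receptors as well as a presenter, stood at 94.4 and 92.2 CPM in the siE1 pair, 84.1 and 89.0 in the siE2 pair and 87.2 and 79.1 in the siE3 pair, against 78.6 and 79.1 with siC. All 6 knockdown libraries lay above siC, the lower siE3 library only just, at 79.09 against 79.06 CPM in the higher siC library. The siE1 pair passed the test, at 0.24 (SE 0.0568, adjusted p = 0.00224). The changes with siE2 (0.13, adjusted p = 0.0564) and siE3 (0.08, adjusted p = 0.307) did not. The siE2 value passed under library-size scaling (adjusted p = 0.0198), a stricter count filter (0.0319) and a fit of the contrast's groups alone (0.0353). The excess of siE1 over siE3, 0.17 (SE 0.0566, adjusted p = 0.0243), was lost without either siE1 library, without the second siE3 library (0.09, adjusted p = 0.229) and by DESeq2. The average of the 3 siRNAs, 0.15 (adjusted p = 0.0136), did not pass without the first siC library (adjusted p = 0.0899) or the second (adjusted p = 0.0783).

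HLA-E, which presents leader peptides of other heavy chains to NK receptors, stood at 125 and 118 CPM in the siE1 pair, 142 and 138 in the siE2 pair and 140.1 and 133 in the siE3 pair, against 129.7 and 134 with siC. The siE1 pair lay below siC and the siE2 pair above it, but neither change passed the test, at -0.12 (adjusted p = 0.0522) and 0.08 (adjusted p = 0.172). The siE1 change sits near the threshold and passed without either siE3 library (adjusted p = 0.0341 and 0.0336). The direct contrasts did pass: siE1 was lower than siE2, at -0.20 (SE 0.0496, adjusted p = 0.00246) and lower than siE3, at -0.17 (SE 0.0498, adjusted p = 0.0118), the second of which was lost without the second siE1 library or the first siE3 library. Averaged over the 3 siRNAs, HLA-E differed from siC by 0.00 with a 95% interval of -0.085 to 0.0881.

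HLA-F, a nonclassical heavy chain, was barely detected, at 9 and 11 counts in the siE1 pair, 8 and 16 in the siE2 pair and 6 and 10 in the siE3 pair, against 10 and 9 with siC. The groups overlapped, and no difference was detectable at this depth: the 95% interval for siE1 against siC ran from -0.995 to 0.969. Its exons also overlap an antisense gene in the table over 535 bases, and whether counting used strand was not given in the sources used here.

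Heavy chain and light chain levels did not run in parallel. The 4 heavy chains summed to 360.4 and 345 CPM in the siE1 pair, 366 and 364 in the siE2 pair and 339 and 319 in the siE3 pair, against 340.0 and 344 with siC. Counts of B2M per heavy chain count were 1.99 and 2.03 in the siE1 pair, 1.86 and 1.84 in the siE2 pair and 2.13 and 2.20 in the siE3 pair, against 1.64 and 1.70 with siC, so every knockdown library lay above both siC libraries, with the highest ratio in siE3. HLA-B made up 32.9% and 33.5% of heavy chain counts with siE3, against 38.6% and 37.7% with siC, and HLA-E made up 41.3% and 41.6% with siE3, against 38.1% and 39.2% with siC. Of the 50-base windows of each principal transcript, 1.7% to 6.79% occur in another gene for these 4 heavy chains, so a part of the reads could be assigned to a paralog; the sum removes exchange among the 4 but not with other genes.

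**Figure D4:**
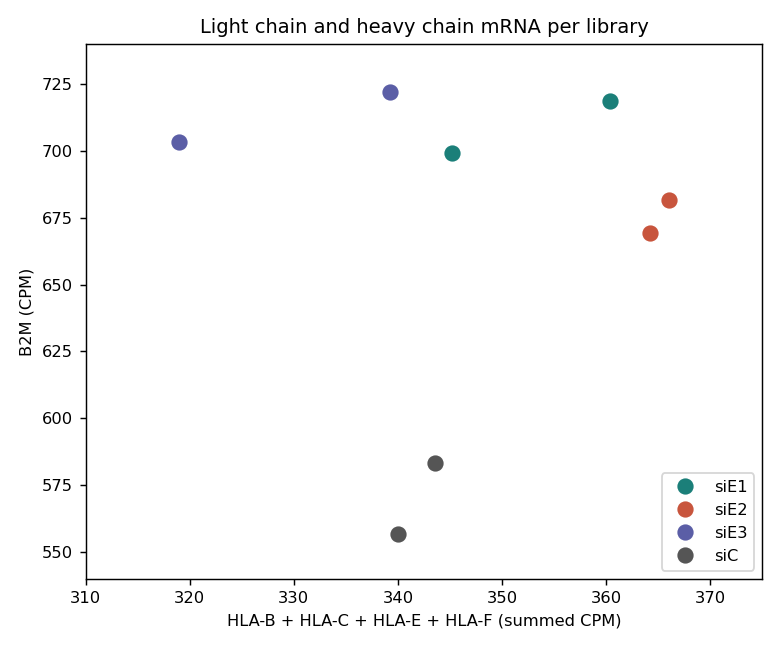
B2M level (CPM) against the summed level of HLA-B, HLA-C, HLA-E and HLA-F (CPM), a point per library coloured by siRNA, with axes that do not start at 0. The siC libraries lie lowest on the B2M axis at 557 and 583 CPM, while their heavy chain sums of 340.0 and 344 CPM fall among those of the knockdown libraries.

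TAP1 and TAP2 form the transporter as a heterodimer, but their mRNAs did not change together. TAP2 stood at 218 and 213 CPM in the siE1 pair, 143 and 144 in the siE2 pair and 203 and 217 in the siE3 pair, against 210.1 and 215 with siC. The siE2 pair was well below every other library, and the siE1 and siE3 pairs overlapped siC. With siE2 TAP2 fell to 67.5% of siC, a log2 fold change of -0.57 (SE 0.0459, adjusted p = 6.61e-08). Against the other siRNAs, siE1 exceeded siE2 by 0.59 (SE 0.0458, adjusted p = 4.08e-08) and siE2 was below siE3, at -0.55 (SE 0.0459, adjusted p = 1.51e-07). The first of these is the single call among the 9 genes past 1.5-fold in any comparison. For siE1 and siE3 against siC the changes were 0.02 (adjusted p = 0.755) and -0.02 (adjusted p = 0.757). Of TAP2's 50-base windows 80.2% also occur in a same-strand gene model that overlaps it and has no row in the count table, so the counts may hold reads of that model.

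TAP1 stood at 38.2 and 42.3 CPM in the siE1 pair, 42.2 and 42.6 in the siE2 pair and 39.8 and 32.4 in the siE3 pair, against 35.0 and 29.6 with siC. The siE1 and siE2 pairs lay above siC, and the siE3 pair overlapped it. TAP1 rose with siE1 by 0.32 (SE 0.0963, adjusted p = 0.0116) and with siE2 by 0.39 (SE 0.0962, adjusted p = 0.00257), whereas siE3 gave 0.16 (adjusted p = 0.205). Both calls were lost without the lower siC library, with values of 0.20 (adjusted p = 0.162) with siE1 and 0.27 (adjusted p = 0.0504) with siE2, and the average fell short too (0.17, adjusted p = 0.183). The siE1 call was also lost without the second siE1 library (0.24, adjusted p = 0.113), and siE3 passed without its second library (0.30, adjusted p = 0.0286). No pair of siRNAs differed in TAP1 at the threshold; siE2 against siE3 came nearest (0.23, adjusted p = 0.055) and passed under 8 of the 16 alternatives that keep the threshold on adjusted p alone. Counts of TAP2 per TAP1 count were 5.70 and 5.04 in the siE1 pair, 3.40 and 3.37 in the siE2 pair and 5.10 and 6.68 in the siE3 pair, against 5.99 and 7.28 with siC.

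TAPBP encodes tapasin, which edits the peptide held by the heavy chain and gave the largest rise of the 9 genes against siC. It stood at 99.9 and 104 CPM in the siE1 pair, 82.0 and 80.8 in the siE2 pair and 70.3 and 70.6 in the siE3 pair, against 71.1 and 70.5 with siC. The siE1 pair lay highest and the siE2 pair next, while siE3 overlapped siC. The log2 fold changes were 0.53 with siE1 (SE 0.05, adjusted p = 4.8e-07), 0.20 with siE2 (SE 0.0507, adjusted p = 0.00316) and -0.01 with siE3 (adjusted p = 0.934). All 3 siRNAs differed from each other: siE1 exceeded siE2 by 0.33 (SE 0.0494, adjusted p = 4.27e-05) and siE3 by 0.53 (SE 0.05, adjusted p = 4.85e-07), and siE2 exceeded siE3 by 0.21 (SE 0.0507, adjusted p = 0.0032).

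NLRC5, the class I transactivator, had 12.7 and 13.5 CPM in the siE1 pair, 18.2 and 14.6 in the siE2 pair and 11.9 and 11.6 in the siE3 pair, against 13.4 and 15.5 with siC. The siE3 pair lay below siC and the other pairs overlapped it. No siRNA passed the test against siC, siE3 coming nearest at -0.30 (SE 0.118, adjusted p = 0.0517), and it passed under 5 of 16 alternatives. NLRC5 was higher with siE2 than with siE3 by 0.48 (SE 0.116, adjusted p = 0.00302), which missed the threshold without the first siE2 library (0.31, adjusted p = 0.0708). The lower value of siE1 than siE2, -0.32 (SE 0.114, adjusted p = 0.0264), was lost by DESeq2 (adjusted p = 0.0746), without either siE1 library (adjusted p = 0.12 and 0.0509) and without the first siE2 library (adjusted p = 0.372).

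Between siRNAs, 4 of 9 genes were called in each pair: siE1 against siE2 (TAP2 and TAPBP higher, HLA-E and NLRC5 lower, where 57.1% of all tested genes were called, 28.5% higher and 28.6% lower), siE1 against siE3 (HLA-B, HLA-C and TAPBP higher, HLA-E lower, where 48.7% were called, 23.3% higher and 25.4% lower) and siE2 against siE3 (HLA-B, TAPBP and NLRC5 higher, TAP2 lower, where 48.5% were called, 23.4% higher and 25% lower). B2M, TAP1 and HLA-F were called in none of the 3. These shares lie near the background or somewhat below it.

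Per kilobase of transcript, B2M was far the most abundant of the 9 mRNAs, at 416 CPM per kb with siE1, 396 with siE2, 418 with siE3 and 334 with siC. In siC it was followed by TAP2 (85.2) and HLA-B (84.3), whose library ranges overlapped, then HLA-C (51.3) and HLA-E (50.8), which overlapped too, TAPBP (37.5), TAP1 (10.9), NLRC5 (2.12) and HLA-F (0.257). This order assumes that all counts of a gene come from its principal transcript. The counts of TAP2 may hold reads of the overlapping model, and those of the heavy chains reads of paralogs, so its place among them is uncertain. With siE2 TAP2 stood at 57.5 CPM per kb, against 89.3 for HLA-B in the same libraries. With siE1 TAPBP stood at 54.1 CPM per kb, against 46.7 for HLA-E, a reversal of their order in siC.

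Among genes that supply and trim peptides, ERAP1 was higher with every siRNA. Of 10 tested, 1 was higher and 1 lower in the siE1 pair, 4 and 3 in the siE2 pair and 3 and 0 in the siE3 pair, at median log2 fold changes of 0.04, 0.03 and 0.05. Of all tested genes 50.3%, 56.4% and 42.1% were called with siE1, siE2 and siE3, so the list's share was below the background with siE1 and siE3 and above it with siE2. ERAP1, the aminopeptidase that trims peptides to class I length in the endoplasmic reticulum, stood at 45.9 and 45.9 CPM in the siE1 pair, 46.8 and 45.6 in the siE2 pair and 47.4 and 48.5 in the siE3 pair, against 36.8 and 36.3 with siC. All 6 knockdown libraries were above siC, and the log2 fold changes of 0.33, 0.34 and 0.39 passed with each siRNA (edgeR adjusted p = 0.000293, 0.000184 and 8.18e-05). Its partner ERAP2 was called with siE2 (0.75, edgeR adjusted p = 0.000156) and not with siE1 (0.14) or siE3 (0.14). The immunoproteasome subunits did not move together. PSMB10 was higher with siE2 and siE3 (0.38 and 0.41). PSMB9 was called lower with siE2 (-0.42), a call that several alternatives ended. PSMB8 was not called, at 106% of siC with siE1, 97% with siE2 and 97.3% with siE3. LNPEP, an endosomal aminopeptidase of cross-presentation, was lower with siE1 (-0.27) and higher with siE2 (0.34) and siE3 (0.45). Of the 3 catalytic subunits of the constitutive proteasome, all were lower with siE2 (28.5% of all tested genes were), led by PSMB5 at -0.44, and PSMB5 was higher with siE1 at 0.17; the list's medians were -0.03, -0.20 and 0.02. The siE2 call of PSMB6 (-0.15) was lost with library-size scaling (adjusted p = 0.0527) and without the second siC (0.138) or second siE2 library (0.0544), and that of PSMB7 (-0.20) without the second siC library (0.082). Leaving out 1 siC library or 1 library of the siRNA ended the siE1 calls of LNPEP and PSMB5 and the siE2 call of PSMB10, and leaving out 1 siC library ended the siE2 call of LNPEP and the siE3 call of PSMB10.

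Of 5 genes listed as loading chaperones, not all of them parts of the loading complex, 3 were called higher with each siRNA. Of all tested genes 24.5%, 27.9% and 21.3% were called higher. All 3 siE3 calls were lost on leaving out some single library. CANX was lower with siE1 and HSPA5 with siE2, and the medians were 0.15, 0.43 and 0.15. Calreticulin (CALR), which holds the heavy chain for loading, stood at 864 and 890.4 CPM in the siE1 pair, 1339 and 1277 in the siE2 pair and 810.1 and 815 in the siE3 pair, against 738 and 747 with siC. The siE2 pair stood far above the rest, and no knockdown library overlapped siC. CALR rose by 0.24, 0.82 and 0.13 (edgeR adjusted p = 0.000118, 3.5e-10 and 0.0153), and the disulfide isomerase PDIA3 by 0.21, 0.52 and 0.17 (adjusted p = 0.00124, 1.41e-07 and 0.00764). The lectin chaperone CANX was lower with siE1 (-0.19) and higher with siE2 (0.15) and siE3 (0.15), and the general chaperone HSPA5 was higher with siE1 (0.13) and lower with siE2 (-0.33). The siE2 call of CANX and the siE1 call of HSPA5 were lost in the same way.

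Among 19 regulators of class I transcription 7 were higher and 4 lower in the siE1 pair, 9 and 5 in the siE2 pair and 4 and 5 in the siE3 pair, at medians of 0.07, 0.15 and 0.06. In either direction that is 11, 14 and 9 of 19, beside 50.3%, 56.4% and 42.1% of all tested genes. IRF1, an interferon-induced activator of class I genes, stood at 22.7 and 23.8 CPM in the siE1 pair, 34.1 and 27.6 in the siE2 pair and 21.4 and 21.7 in the siE3 pair, against 12.8 and 15.04 with siC. Every knockdown library exceeded siC, with log2 fold changes of 0.74, 1.14 and 0.62 (edgeR adjusted p = 4.47e-05, 2.72e-07 and 0.00031). CREB1, which binds the X2 box, was higher with each siRNA (0.44, 0.44 and 0.39). NFKB1, the p50 subunit precursor of NF-κB, was lower with each (-0.28, -0.80 and -0.32), as was the histone methyltransferase gene EZH2 (-0.19, -0.71 and -0.31), whose siE1 and siE3 calls did not hold under every alternative. IFNGR1, the ligand-binding chain of the interferon-γ receptor, stood at 60.7 and 64.4 CPM in the siE1 pair, 68.8 and 71.1 in the siE2 pair and 34.1 and 29.98 in the siE3 pair, against 55.1 and 55.8 with siC. It was lower with siE3 (-0.79, adjusted p = 2.72e-07) and higher with siE2 (0.34, adjusted p = 0.000354) and siE1 (0.17, adjusted p = 0.0339), the last of which was lost by DESeq2 and without some single libraries.

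Class II genes, which mark professional antigen-presenting cells, were at 0 to 4 counts in 9 of 10 rows. HLA-DMA, a class II loading factor, was the only one tested and was higher with siE2 (0.85, adjusted p = 0.0412) on 21 to 29 counts with siE2 against 11 to 16 with siC, a call that several alternatives ended. Of 12 class I-like molecules and NK ligands 9 were tested, of which 3 were higher and 1 lower in the siE1 pair, 5 and 3 in the siE2 pair and 1 and 1 in the siE3 pair, at medians of -0.17, 0.29 and 0.10. Beside the 50.3%, 56.4% and 42.1% of all tested genes called, these 4, 8 and 2 of 9 lie below, above and below. MICB, a stress-induced ligand of the NK receptor NKG2D, stood at 19.6 and 16.6 CPM in the siE1 pair, 45.4 and 45.7 in the siE2 pair and 55.6 and 53.6 in the siE3 pair, against 67.1 and 61.1 with siC. All 6 were below siC, the siE1 pair by far the most, with log2 fold changes of -1.83, -0.49 and -0.23 (edgeR adjusted p = 1.04e-10, 2.69e-05 and 0.0145). MICA, a close relative with the same receptor, was higher with siE1 (0.18) and siE3 (0.27) and lower with siE2 (-0.43); the siE1 call and the MICB siE3 call were lost without some single libraries. With siE2, the vitamin metabolite presenter MR1 (0.90), the iron regulator HFE (0.75) and the neonatal Fc receptor chain FCGRT (1.27) were higher. FCGRT was also called higher with siE1 (0.91), a call lost by DESeq2 and without some single libraries. Its mean level was low, at 1.49 CPM with siE1, 1.92 with siE2 and 0.864 with siE3, against 0.802 with siC.

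**Figure D5:**
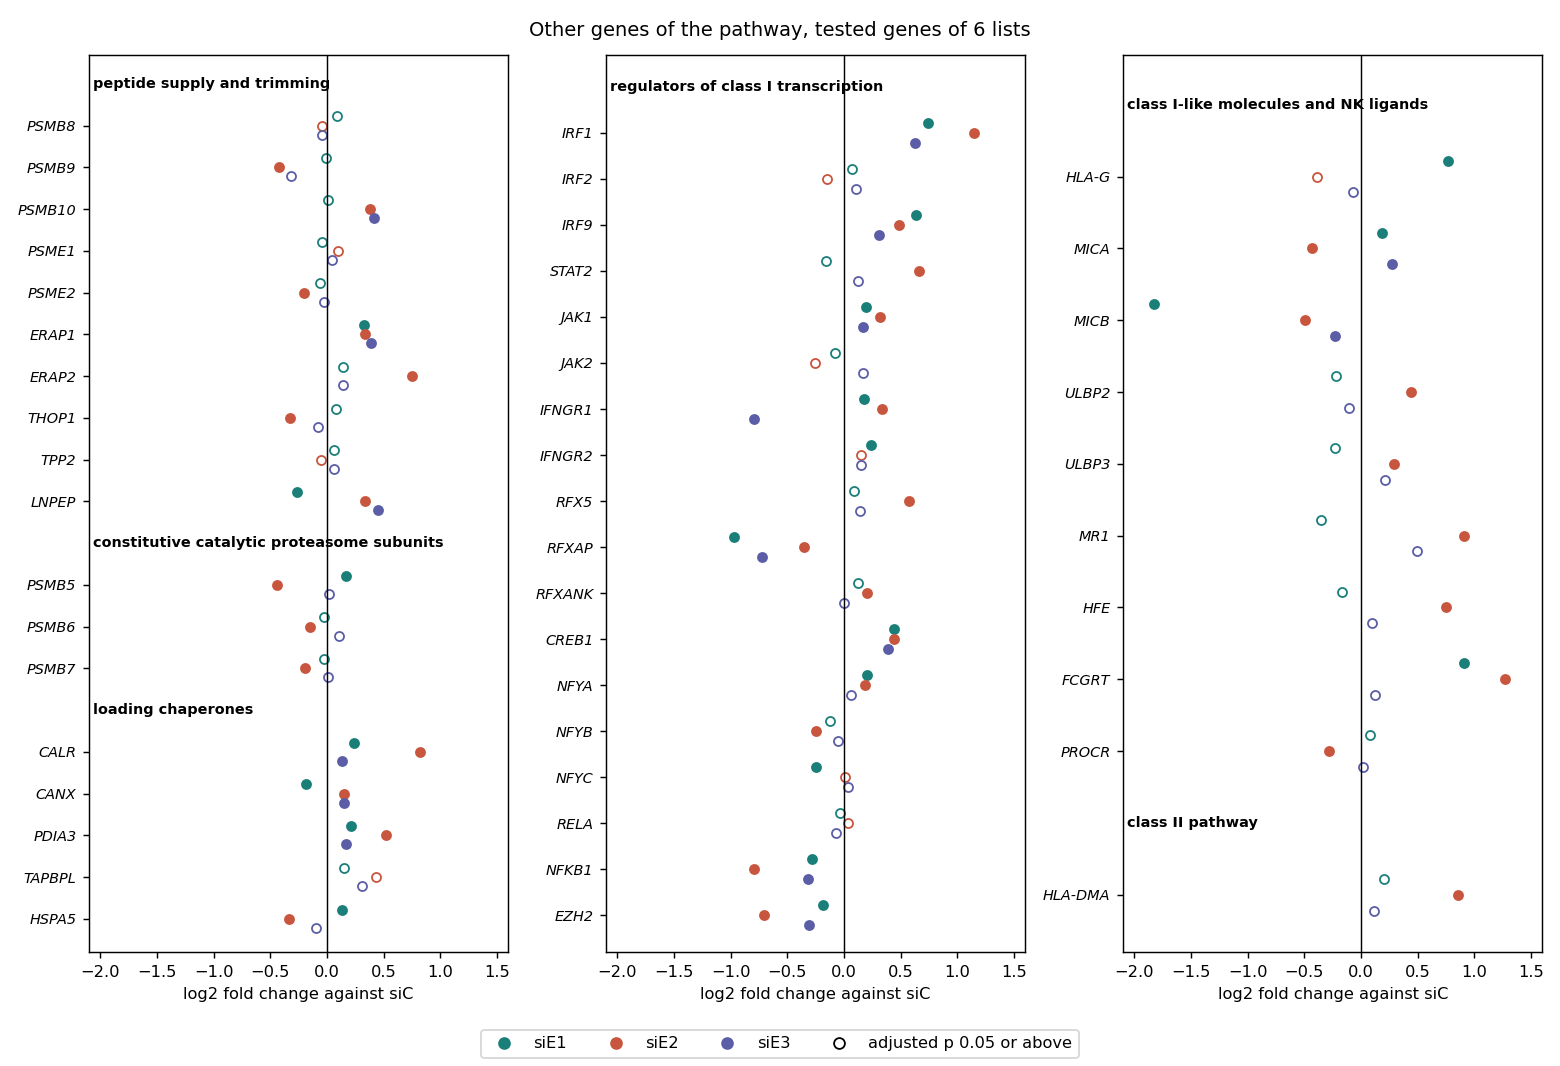
Log2 fold change against siC, for siE1, siE2 and siE3, of tested genes in 6 lists around the class I route, 1 regulator not being drawn. Filled points have an adjusted p below 0.05 by edgeR; IRF1 and ERAP1 lie right of 0 with every siRNA, MICB lies left of it, and IFNGR1 lies left with siE3 only.

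Averaged as centred log2 levels, the 9 genes were highest with siE1 (0.08 and 0.09) and siE2 (0.02 and 0.08), against -0.08 and -0.08 with siE3 and -0.05 and -0.06 with siC. Each gene had equal weight, also HLA-F at 6 to 16 counts per library, and the part of its counting noise in this profile was not tested. Among 10494 other genes with a mean of at least 5 CPM, those whose levels followed this profile most closely over the 8 libraries were CFDP1 (Pearson's r 0.986), KCNAB2 (0.979), NIPAL3 (0.978), MOXD1 (0.974) and ZNF611 (0.974). The 8 libraries form 4 pairs, so these correlations rest on few independent levels and are a description. KCNAB2, a potassium channel subunit, showed the pattern with the widest span, at 116 and 114 CPM in the siE1 pair, 101 and 105 in the siE2 pair and 63.5 and 59.9 in the siE3 pair, against 69.6 and 71.4 with siC.

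In the authors' deposited table, adjusted p-values were below 0.05 for 3 of the 9 genes with siE1 (all higher), 4 with siE2 (3 higher and 1 lower) and 2 with siE3 (1 higher and 1 lower). The share of all genes below 0.05 in that table was not computed, so these counts single out nothing. They rest on the same libraries and are not independent of the calls above. In that table HLA-B with siE3 had a fold of 0.839 (adjusted p = 0.00501) and HLA-C with siE1 a fold of 1.19 (adjusted p = 0.00259).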

How the data were processed

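RNA-seq of 8 libraries was analysed, 2 for each of siE1, siE2, siE3 and siC, grouped by the siRNA in the labels. The authors deposited raw counts per gene symbol, with TopHat 1.3.3, HTSeq, DESeq and hg19 named in the submitters' processing notes without role or order. The deposited table also holds the authors' fold ratios and p-values, which are quoted where named. Library totals of 21835995 to 25880548 counts set the precision, and the smallest counts carry the widest intervals.

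Counts were tested with edgeR 4.0.16 (R 4.3.3): TMM scaling, filterByExpr (13395 of 23368 symbols kept), a quasi-likelihood fit of all 8 libraries with a mean per siRNA, and Benjamini-Hochberg adjustment over all tested genes in a contrast, with 0.05 as threshold. The common biological coefficient of variation was 4.08%. SE is the log2 fold change over the root of F. CPM are scaled by TMM factors, and levels per kilobase use principal transcript lengths of GENCODE v29. Motifs were searched on both strands of RefSeq promoters. Alternatives used limma 3.58.1, DESeq2 1.42.0, other scalings and filters, the contrast's groups only, a replicate block, a fold limit and each library left out. Context lists were run under the same alternatives, a choice made after seeing the data.

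Named genes are the 9 genes, and of each context list up to 4 with the smallest p for the average of the siRNAs plus any called in opposite directions by 2 siRNAs. PSMB8 and PSMB9 are named beside PSMB10 as the other immunoproteasome subunits listed. Some listed genes are counted but not reported by name here. The gene set and the lists were chosen with earlier results of these data known. Replicates differed by more than sampling noise (chi-square per degree of freedom 3.11 to 5.12 over the 4 replicate pairs), and all 8 were kept. The comparisons of siE1, siE2 and siE3 with siC share the siC libraries.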

Additional observations from a re-analysis of the deposited data

Results flagged for a closer look

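The following genes of the context lists were called in opposite directions against siC by 2 siRNAs, and the direct contrast of those siRNAs, by edgeR's quasi-likelihood test, was called too. Values are log2 differences. Several of the calls against siC behind them were lost on leaving out some single library. These were LNPEP with siE1 and siE2, CANX with siE2 and siE3, and PSMB5, HSPA5, IFNGR1 and MICA with siE1. LNPEP was lower with siE1 than with siE2 (-0.604, SE 0.0826, adjusted p = 1.58e-05) and siE3 (-0.716, SE 0.0823, adjusted p = 4.23e-06). PSMB5 was higher with siE1 than with siE2 (0.611, SE 0.0465, adjusted p = 3.04e-08). CANX was lower with siE1 than with siE2 (-0.335, SE 0.0447, adjusted p = 1.25e-05) and siE3 (-0.34, SE 0.0447, adjusted p = 1.64e-05). HSPA5 was higher with siE1 than with siE2 (0.466, SE 0.0417, adjusted p = 1.8e-07). IFNGR1 was higher with siE1 (0.968, SE 0.0678, adjusted p = 2.2e-08) and with siE2 (1.13, SE 0.0675, adjusted p = 4.19e-09) than with siE3. MICA was higher with siE1 than with siE2 (0.617, SE 0.0568, adjusted p = 2.49e-07) and lower with siE2 than with siE3 (-0.703, SE 0.0568, adjusted p = 1.02e-07). In each of these contrasts the library pairs did not overlap. The genes were picked because their direct contrast was called, so its p-value and this lack of overlap add no support. The share of all tested genes that meet the rule was not computed.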

How the results depend on the processing

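The calls of B2M, TAPBP, TAP2 and HLA-B against siC in the report kept their direction and their side of the threshold under every alternative computed for single genes, none of which sets a fold limit or crosses the blocks. With 2 libraries per group, a single library decides several calls of TAP1, HLA-C and NLRC5, and low counts limit HLA-F. With a fold limit of 1.5 the count of class I genes called was 0 with siE1, 0 with siE2, 0 with siE3, 0 for their average, 1 for siE1 against siE2, 0 for siE1 against siE3 and 0 for siE2 against siE3, and of all genes 1974, 2408, 1335, 1277, 2556, 1827 and 1691 in the same order. With library-size scaling siE2 called 7. Leaving out each library in turn gave 3 to 5 class I genes with siE1, 3 to 5 with siE2, 2 to 3 with siE3, 3 to 5 for the average (3 without the second siC library), 3 to 4 for siE1 against siE2, 2 to 4 for siE1 against siE3 (2 without the second siE1 library) and 3 to 5 for siE2 against siE3; of all genes it gave 5295 to 6984, 6371 to 7704, 4198 to 5525, 5130 to 6951, 6354 to 7822, 5056 to 6466 and 5008 to 6414. Values that changed sign were all uncalled: HLA-E for the average was -0.00108 with no filter and -0.00213 by DESeq2, HLA-F for the average was -0.0189 by limma-voom, and B2M for siE1 against siE3 was 0.00107 with library-size scaling and 0.00435 with a stricter filter. Sign changes on leaving out a library were spread over HLA-F, from -0.134 to 0.106 with siE1, -0.277 to 0.709 with siE2, -0.605 to 0.0423 with siE3, -0.177 to 0.157 for the average, -0.714 to 0.262 for siE1 against siE2, -0.0574 to 0.59 for siE1 against siE3 and -0.0396 to 0.942 for siE2 against siE3. They also touched TAP2 (-0.00182 to 0.0341 with siE1, -0.0687 to 0.0266 with siE3, -0.0103 to 0.0849 for siE1 against siE3), HLA-E (-0.0267 to 0.0266 for the average, -0.00371 to 0.076 for siE2 against siE3), NLRC5 (-0.189 to 0.0209 for the average), HLA-B (-0.0400 to 0.0279 for siE1 against siE2), B2M (-0.0286 to 0.011 for siE1 against siE3) and HLA-C (-0.0131 to 0.128 for siE2 against siE3). The labels do not say that the replicate numbers pair the samples. Deviations of same-numbered libraries correlated at 0.364 between siE1 and siE2 and at 0.257 between siE3 and siC, but between -0.39 and -0.337 for the other 4 combinations. With 2 libraries per group these signs depend on which library is numbered first, and what the libraries share was not tested. The exchanged block given below follows these same signs, so its counts are a description. With the replicate number as a block, 6334, 7225, 5221, 6432, 7300, 6096 and 6052 genes were called, and the class I counts stayed at 4, 4, 2, 5, 4, 4 and 4. With the numbers of siE3 and siC exchanged, a block chosen after seeing the data, 7740, 8394, 6795, 7826, 8527, 7627 and 7547 genes were called, and 5, 5, 4, 5, 5, 5 and 5 class I genes, of which the 4 with siE3 is over 1.5 times the 2 without a block.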

Other observations

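Other regulators of class I transcription, chosen after their values were seen, also departed from siC. IRF9, the DNA-binding part of the interferon-stimulated gene factor, stood at 22.4 and 24.7 CPM in the siE1 pair, 21.2 and 21.3 in the siE2 pair and 19.8 and 17.9 in the siE3 pair, against 15.8 and 14.6 with siC. All 6 knockdown libraries were above siC, at log2 fold changes of 0.64, 0.49 and 0.31 (edgeR adjusted p = 2.9e-05, 0.000303 and 0.0144), the last of which was lost without the second siC or first siE3 library. RFXAP, a subunit of the RFX complex, was lower with each siRNA (-0.97, -0.35 and -0.72; adjusted p = 2.74e-05, 0.0273 and 0.000442), the siE2 call being lost by DESeq2 (adjusted p = 0.141) and under 3 other alternatives. STAT2 and RFX5 were higher with siE2 (0.66 and 0.57, edgeR adjusted p = 0.000112 and 8.9e-07) and not called with siE1 (-0.16 and 0.09) or siE3 (0.12 and 0.14).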
